A study of Sus scrofa with 60 samples.

Results

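Apolipoproteins are the proteins that carry lipid through the blood, and the liver makes most of them. The 9 genes described here were chosen by symbol as the apolipoprotein genes of the liver: APOA1, APOA2, APOA4, APOA5, APOB, APOC3, APOE, APOH and APOM. They are 9 of 30335 named genes in the deposited count table, and each symbol stood on a single line of it.

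Hepatocytes build triglyceride and cholesterol around apolipoprotein B and secrete the particle as very-low-density lipoprotein (VLDL), whose triglyceride is then released in the capillaries by lipoprotein lipase. The small apolipoproteins ride on these particles and on high-density lipoprotein (HDL), where they stimulate or restrain the lipase, activate cholesterol esterification, or bind the receptors through which the liver takes remnants back. When bile flow is blocked, cholesterol and phospholipid that would leave in bile return to plasma, and the plasma lipoproteins are known to change.

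The libraries hold liver mRNA of neonatal pigs, collected on day 14 after either bile duct ligation (BDL), which ties off the cystic and common bile ducts, or a sham operation. Pigs were fed a milk replacer by tube (ENT), or were given parenteral nutrition whose lipid was either a soybean oil emulsion (SLE, labelled IL) or a multicomponent emulsion (MLE, labelled SL). All were delivered by caesarean section shortly before term, carried a jugular catheter, were of mixed Landrace and Hampshire breed and received parenteral nutrition at the start. The libraries fall into 6 groups, with 12 sham and 10 BDL libraries on ENT, 10 and 11 on SLE, and 9 and 8 on MLE.

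A library held 14469788 to 21374161 counted reads, with a median of 17254606. The 9 apolipoprotein genes took 2.14% to 3.59% of all counts of a library, and the group medians of that share were 3.12% in sham and 2.82% in BDL pigs on ENT, 2.68% and 2.66% on SLE, and 3.21% and 2.37% on MLE. The lowest count of any of the 9 genes in any library was 62, for APOA5, so counting error is small beside the spread between pigs.

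A pair of libraries from different groups was almost the same. Over 15841 genes, ENT-sham replicate 2 and ENT-BDL replicate 1 had a chi-square per degree of freedom of 1.91, where the next closest of 1770 pairs had 16.1 and the median pair within a group 53.4. ENT-sham replicate 2 was the lowest of the 12 ENT-sham libraries for 7 of the 9 genes, had the lowest summed level of hepatocyte markers in its group (66000 CPM) and the highest summed levels of cholangiocyte markers (375 CPM) and of stellate cell and fibroblast markers (3550 CPM). Both libraries were kept under their labels, and for the 9 genes the values of the differences from ENT pigs that passed are also given without them. Marker and list genes were not refitted without this pair. SLE-sham replicates 9 and 10 share a pig identifier, but at a chi-square per degree of freedom of 34.2 they were not as close as the matching pair. The labels do not say whether these are 1 animal, so the number of distinct pigs is not established.

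Levels are given in CPM, read counts relative to the effective library size after scaling by trimmed means, as the lowest, the median and the highest library of a group. Differences are log2 fold changes with their standard error (SE) from a quasi-likelihood fit in edgeR of all 60 libraries, tested on both sides for 16210 genes. A gene passed at a Benjamini-Hochberg adjusted p under 0.05 over these genes, and "rose" or "fell" is written only of a gene that passed. The tissue was bulk liver, so fewer hepatocytes and less mRNA in each hepatocyte cannot be told apart. Albumin (ALB), the most abundant of 7 usable hepatocyte markers, averaged 49500 CPM over all libraries, and none of the 7 was at 0 in any group, as the liver label requires.

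APOA1, APOC3, APOA4 and APOA5 lie together in 40.5 kb of chromosome 9. On Sscrofa11.1, APOA5 (gene ID 100286807) spans 44177834 to 44180880 on the minus strand, and APOA4 (397681) spans 44201587 to 44204072 on the same strand. APOC3 (406187) spans 44211171 to 44213538 on the plus strand, and APOA1 (397691) spans 44216481 to 44218360 on the minus strand. The remaining genes are scattered. APOB (100523371) lies on chromosome 3 at 117250096 to 117316200, APOA2 (100153243) on chromosome 4 at 89237514 to 89239126 and APOE (397576) on chromosome 6 at 51373113 to 51375333, all on the plus strand. APOM (692188) lies on chromosome 7 at 23768974 to 23773324 on the plus strand, and APOH (100522100) on chromosome 12 at 12827195 to 12839172 on the minus strand.

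**Figure D1:**
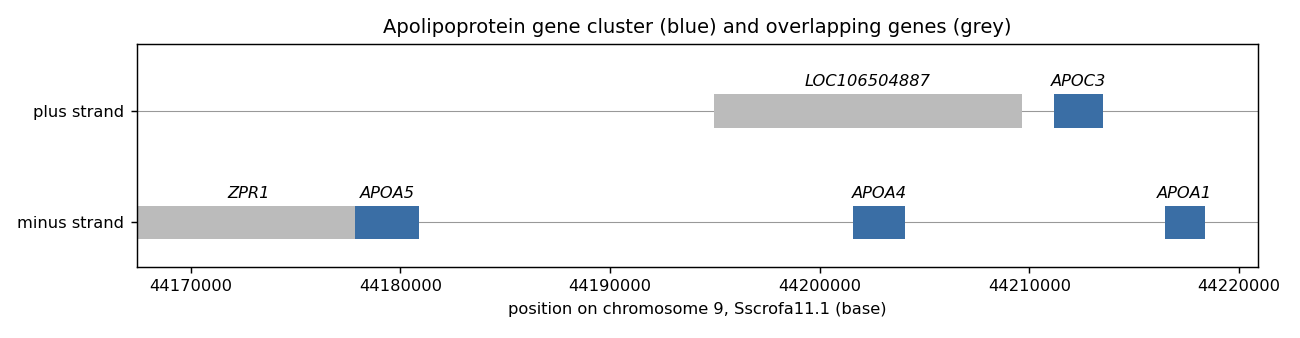
The apolipoprotein gene cluster of chromosome 9, with position in bases of Sscrofa11.1 along the axis and genes drawn to scale on the plus or minus strand. The 4 apolipoprotein genes are blue and the genes whose spans overlap them, ZPR1 and LOC106504887, are grey; ZPR1 starts at the left edge of the map.

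Both of the genes with low counts overlap another gene. All 2486 bases of APOA4 lie inside LOC106504887, a long noncoding RNA gene on the opposite strand, whose count had a median of 6.5 and a highest value of 38, and APOA5 shares 304 bases with ZPR1, a zinc finger protein gene on the same strand with a median count of 797.5. The authors do not state whether counting took the strand into account. Strand could separate reads of APOA4 from those of LOC106504887, but not reads of APOA5 from those of ZPR1. The part of shared reads in either count was not tested. ZPR1 passed in none of the 9 comparisons of groups in edgeR, with group medians of 40.8 to 48.9 CPM and an adjusted p of 0.0923 at the lowest. In SLE-BDL replicates 7 and 9, which had the highest APOA5 of their group (58.87 and 29.74 CPM), ZPR1 was 95.7 and 95.5 CPM against a group median of 44 CPM.

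Per kilobase of gene model, APOE and APOA1 were the most abundant of the 9 mRNAs. The median over the 60 libraries was 8350 CPM per kb for APOE and 7650 CPM per kb for APOA1, and APOE was the higher of the pair in 35 of 60 libraries, so their order is not settled. APOC3 followed at 2860 CPM per kb, above APOH at 2170 CPM per kb in 47 of 60 libraries. APOA2 had 1280 CPM per kb, below APOH in 58 of 60 libraries, and APOB had 401 CPM per kb, below APOA2 in every library. APOM, at 73.5 CPM per kb, stood well under APOB and above APOA4 in 57 libraries. APOA4 and APOA5 came last, at 8.42 and 7.95 CPM per kb, with APOA4 the higher in 34 of 60 libraries.

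That order was not the same in every group. In ENT-sham and MLE-sham livers APOA1 had the highest median, at 9670 and 10600 CPM per kb, although it exceeded APOE in 6 of 12 ENT-sham and 8 of 9 MLE-sham libraries. In MLE-BDL livers APOH and APOC3 were level, at 1750 and 1580 CPM per kb, with APOH the higher in 4 of 8 libraries. APOA5 was above APOA4 per kb in all 12 ENT-sham and 9 of 10 ENT-BDL libraries, whereas APOA4 was the higher in 9 of 10 sham and 10 of 11 BDL libraries on SLE, and in 6 of 9 and all 8 on MLE. The ratio of APOA5 to APOA4 per kb had a median of 2.96 in sham and 1.53 in BDL pigs on ENT, 0.573 and 0.474 on SLE, and 0.882 and 0.21 on MLE.

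**Figure D2:**
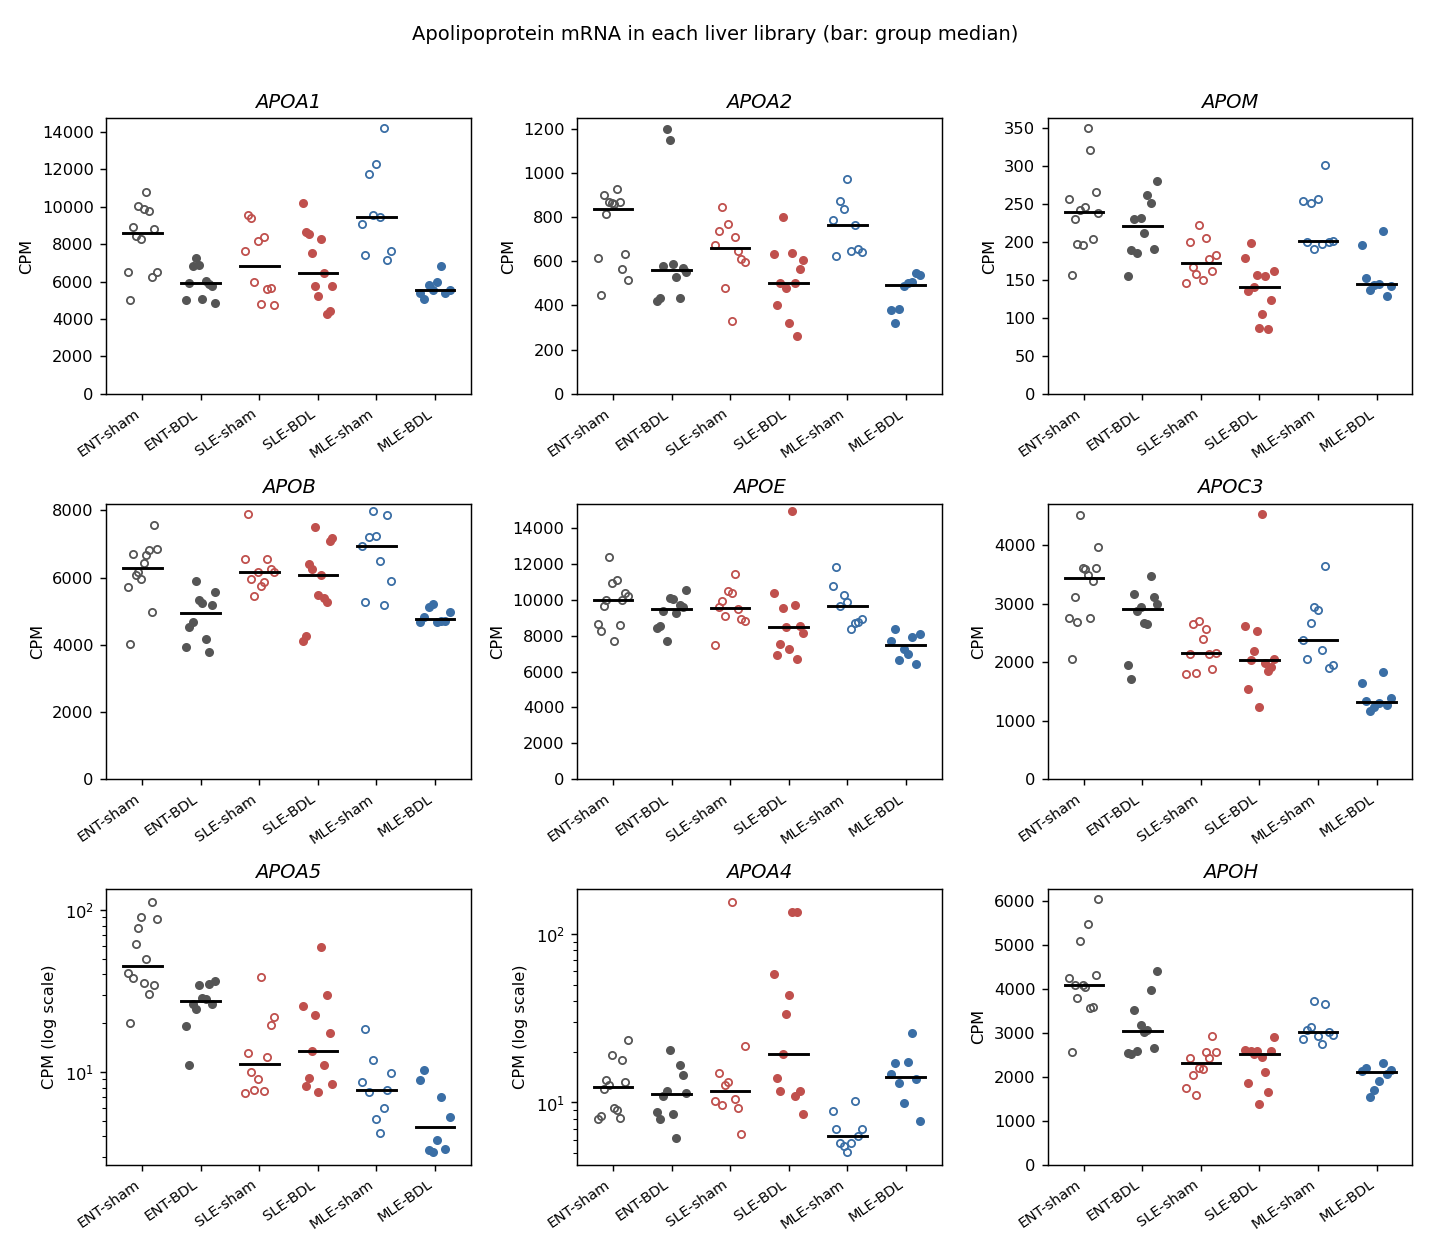
Level of each of the 9 mRNAs in CPM, with each of the 60 libraries as a point (open for sham, filled for BDL) and the group median as a black bar. APOA5 and APOA4 are on a log axis, and APOA4 reaches 155.6 CPM in a single SLE-sham library.

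APOA1 encodes the main protein of HDL, which accepts cholesterol leaving cells and activates the enzyme that esterifies it. Its level was 5011, 8613 and 10790 CPM (lowest, median and highest) in ENT-sham and 4875, 5899 and 7282 CPM in ENT-BDL livers. On SLE, sham livers had 4732, 6819 and 9568 CPM, and BDL livers 4273, 6461 and 10220 CPM. On MLE, sham livers had 7133, 9452 and 14210 CPM, and BDL livers 5063, 5539 and 6811 CPM. Every MLE-BDL library was below every MLE-sham library, all ENT-BDL libraries were below the ENT-sham median although the ranges overlapped, and the SLE groups covered nearly the same range.

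After BDL, APOA1 fell on MLE by 0.79 on the log2 scale (SE 0.16, adjusted p = 0.000334, 8 of 8 libraries below the sham median), a level 1.73-fold lower. On ENT it fell by 0.47 (SE 0.14, adjusted p = 0.0136, 10 of 10 libraries), and by 0.50 with both matching libraries left out. On SLE the difference was -0.03 (SE 0.14, adjusted p = 0.938), with a 95% interval of -0.31 to 0.25. The BDL differences were not shown to differ between diets in edgeR, where the SLE difference minus the ENT difference was 0.44 (adjusted p = 0.271) and the MLE difference minus the SLE difference -0.76 (adjusted p = 0.105), which passed in DESeq2 on all libraries (-0.75, adjusted p = 0.0499, with 0.184 the highest of the alternatives). Between diets APOA1 passed in no comparison in edgeR, and the nearest was MLE-sham against SLE-sham at 0.49 (SE 0.15, adjusted p = 0.0958, 9 of 9 libraries above the SLE-sham median). With the number in the pig identifiers as a block, that difference was 0.60 (adjusted p = 0.00712) and MLE-sham against ENT-sham went from 0.25 (adjusted p = 0.219) to 0.47 (adjusted p = 0.00909), the lowest adjusted p of any alternative for either.

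APOA2 encodes the other main HDL protein. It ranged over 445.4, 836.4 and 924.9 CPM in ENT-sham and 418.9, 559.8 and 1199 CPM in ENT-BDL livers. The SLE-sham values were 332, 660 and 847.4 CPM, and the SLE-BDL values 263.8, 502.6 and 798.2 CPM. The MLE-sham values were 625.6, 765.3 and 973.3 CPM, and the MLE-BDL values 319.9, 493.3 and 546.9 CPM. The MLE groups did not overlap, while a pair of ENT-BDL libraries (replicates 4 and 5, at 1199 and 1147 CPM) stood above all ENT-sham libraries and the other 8 ENT-BDL libraries stayed at 589.6 CPM or less.

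APOA2 fell after BDL on MLE by 0.73 (SE 0.19, adjusted p = 0.00557, 8 of 8 libraries), or 1.65-fold. The BDL difference was -0.20 (SE 0.17, adjusted p = 0.458, 8 of 10 libraries) on ENT and -0.30 (SE 0.17, adjusted p = 0.341, 10 of 11 libraries) on SLE. MLE minus ENT, at -0.53 (adjusted p = 0.534), and MLE minus SLE, at -0.42 (adjusted p = 0.622), did not separate the diets. MLE-BDL against ENT-BDL was -0.49 (SE 0.19, adjusted p = 0.0566, 8 of 8 libraries) and passed without ENT-BDL replicate 1, 2, 7 or 8, at -0.55 to -0.52 and an adjusted p of 0.0367 to 0.0491. It also passed without the matching pair (-0.54, adjusted p = 0.0323), with the replicate block (-0.49, adjusted p = 0.0455) and in DESeq2 on all libraries (-0.49, adjusted p = 0.0493); the highest adjusted p of the alternatives was 0.247. With the identifier number as a block, APOA2 also passed in BDL against sham on SLE (-0.47, adjusted p = 0.0377) and in SLE-BDL against ENT-BDL (-0.43, adjusted p = 0.0146), where the fit without it gave -0.31 (adjusted p = 0.193).

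APOM encodes the apolipoprotein that carries sphingosine 1-phosphate, mostly on HDL. ENT-sham livers had 156.3, 239.6 and 349 CPM, and ENT-BDL livers 155.2, 221 and 279.6 CPM. SLE-sham livers had 146.4, 172.1 and 222 CPM, and SLE-BDL livers 85.82, 140.5 and 197.9 CPM. MLE-sham livers had 190.9, 201.3 and 301.6 CPM, and MLE-BDL livers 129, 144 and 214.1 CPM. Every pair of groups overlapped, but all 10 SLE-sham libraries were under the ENT-sham median and all 11 SLE-BDL libraries under the ENT-BDL median.

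On SLE, APOM fell against ENT by 0.45 in sham pigs (SE 0.12, adjusted p = 0.00402) and by 0.66 in BDL pigs (SE 0.13, adjusted p = 9.19e-05), and by 0.50 and 0.70 without the matching ENT pair. On MLE it fell against ENT in BDL pigs by 0.48 (SE 0.14, adjusted p = 0.0103, 8 of 8 libraries), or 0.51 without the matching libraries, while MLE-sham against ENT-sham gave -0.08 (SE 0.13, adjusted p = 0.688). MLE-sham against SLE-sham was 0.37 (SE 0.13, adjusted p = 0.188), which passed in DESeq2 on those groups alone (0.37, adjusted p = 0.0171, with 0.327 the highest of the alternatives). BDL lowered APOM on MLE by 0.54 (SE 0.14, adjusted p = 0.00503, 7 of 8 libraries). The BDL difference on SLE was -0.35 (SE 0.12, adjusted p = 0.094, 9 of 11 libraries) and passed without SLE-BDL replicate 3 (-0.41, adjusted p = 0.0392, with 0.206 the highest value when another library was left out). On ENT it was -0.14 (SE 0.12, adjusted p = 0.464), and MLE minus ENT was -0.39 (adjusted p = 0.519).

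APOB encodes the scaffold protein of VLDL and low-density lipoprotein, a single copy of which stays with each particle from assembly to uptake. ENT-sham livers had 4015, 6300 and 7576 CPM, and ENT-BDL livers 3779, 4939 and 5910 CPM. The SLE-sham range was 5454, 6168 and 7894 CPM, and the SLE-BDL range 4113, 6090 and 7504 CPM. In MLE-sham livers it was 5199, 6939 and 7989 CPM, and in MLE-BDL livers 4675, 4766 and 5220 CPM. The 8 MLE-BDL libraries lay close together, with an SD of 4.44% of their mean, and 7 of them were below every MLE-sham library.

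After BDL, APOB fell by 0.46 on MLE (SE 0.11, adjusted p = 0.00244, 8 of 8 libraries) and by 0.35 on ENT (SE 0.10, adjusted p = 0.00788, 10 of 10 libraries; by 0.37 without the matching libraries). On SLE the difference was -0.08 (SE 0.10, adjusted p = 0.711). SLE minus ENT was 0.27 (adjusted p = 0.367) and MLE minus SLE -0.37 (adjusted p = 0.365). In sham pigs the diets differed by 0.02 to 0.11 and did not pass, whereas in BDL pigs APOB rose on SLE against ENT by 0.29 (SE 0.10, adjusted p = 0.0307, 9 of 11 libraries above the ENT-BDL median, 0.27 without the matching pair). That call was lost without ENT-BDL replicate 1, 7 or 8 or SLE-BDL replicate 5, 10 or 11, at 0.25 to 0.27 and an adjusted p of 0.0535 to 0.0769. It was also lost in 5 other alternatives, among them the replicate block (0.25, adjusted p = 0.0611) and the identifier number as a block (0.21, adjusted p = 0.0921). The others were no filter on low counts and edgeR or DESeq2 on those groups alone (0.287 to 0.295, adjusted p 0.0541 to 0.133). Over all alternatives, single libraries left out included, the adjusted p was 0.0111 to 0.133.

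APOE encodes the ligand by which remnant particles bind their receptors on hepatocytes. Its values were 7700, 9973 and 12400 CPM in ENT-sham and 7685, 9488 and 10530 CPM in ENT-BDL livers. They were 7501, 9533 and 11420 CPM in SLE-sham and 6722, 8473 and 14920 CPM in SLE-BDL livers. In MLE-sham livers they were 8374, 9652 and 11820 CPM, and in MLE-BDL livers 6400, 7490 and 8375 CPM. The 3 sham groups had nearly equal medians, SLE-BDL replicate 7 alone held the highest value of all 60 libraries, and the highest MLE-BDL library met the lowest MLE-sham library.

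APOE fell after BDL on MLE by 0.39 (SE 0.11, adjusted p = 0.0103, 8 of 8 libraries), or 1.31-fold. On ENT the BDL difference was -0.07 (SE 0.10, adjusted p = 0.653) and on SLE -0.10 (SE 0.10, adjusted p = 0.643). MLE minus ENT was -0.31 (adjusted p = 0.514) and MLE minus SLE -0.29 (adjusted p = 0.526), so the diets were not shown to differ. MLE-BDL livers were also below ENT-BDL livers, where APOE fell by 0.33 (SE 0.11, adjusted p = 0.0239, 8 of 8 libraries; by 0.34 without the matching pair), a call lost without ENT-BDL replicate 10 or MLE-BDL replicate 3, 5 or 7 (-0.30 to -0.29, adjusted p 0.055 to 0.0677). Among sham pigs the differences between diets were -0.04 to 0.02.

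APOC3 encodes an inhibitor of lipoprotein lipase and of remnant uptake, which raises plasma triglyceride. ENT-sham livers held 2063, 3443 and 4512 CPM, and ENT-BDL livers 1710, 2909 and 3469 CPM. SLE-sham livers held 1806, 2153 and 2696 CPM, and SLE-BDL livers 1233, 2033 and 4539 CPM. MLE-sham livers held 1898, 2380 and 3648 CPM, and MLE-BDL livers 1168, 1316 and 1836 CPM. The MLE groups did not overlap, 6 of 8 MLE-BDL libraries were below every library of the other groups except SLE-BDL replicate 6 (1233 CPM), and SLE-BDL replicate 7 stood apart from the next SLE-BDL library at 2625 CPM.

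BDL on MLE lowered APOC3 the most of the 9 genes among those that passed there, as it fell by 0.85 (SE 0.16, adjusted p = 0.000139, 8 of 8 libraries), or 1.8-fold. On ENT the difference was -0.26 (SE 0.14, adjusted p = 0.208, 9 of 10 libraries) and on SLE 0.00 (SE 0.14, adjusted p = 0.997). MLE minus ENT was -0.59 (adjusted p = 0.358). MLE minus SLE was -0.85 (SE 0.22, adjusted p = 0.0595), and it passed without SLE-BDL replicate 2, 6 or 9, MLE-sham replicate 6 or 8 or MLE-BDL replicate 6 (-0.91 to -0.87, adjusted p 0.02 to 0.0498), without the matching ENT pair, with the identifier number as a block (-0.88, adjusted p = 0.0461) and in DESeq2 (-0.85, adjusted p = 0.0215 on all libraries); over the leave-one-out fits the adjusted p went up to 0.113.

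Against ENT, APOC3 fell on both parenteral diets in sham pigs, by 0.57 on SLE (SE 0.14, adjusted p = 0.00163, 10 of 10 libraries) and by 0.39 on MLE (SE 0.15, adjusted p = 0.0472, 8 of 9 libraries). Without the matching libraries these were falls of 0.62 and 0.44. The MLE call was lost in 13 of 21 fits that each left out 1 library, namely ENT-sham replicate 5, 6, 7, 8, 10, 11 or 12 and MLE-sham replicate 1, 2, 3, 6, 8 or 9, with -0.40 to -0.34 and an adjusted p of 0.0559 to 0.0951. It was also lost without a filter on low counts (-0.39, adjusted p = 0.0663) and with a replicate block (-0.36, adjusted p = 0.0621). In BDL pigs APOC3 fell on MLE by 0.98 against ENT (SE 0.16, adjusted p = 7.65e-06, 8 of 8 libraries, 1.97-fold; by 1.01 without the matching pair) and by 0.67 against SLE (SE 0.16, adjusted p = 0.017, 8 of 8 libraries). The call against SLE was lost without SLE-BDL replicate 7 (-0.51, adjusted p = 0.0698) and without MLE-BDL replicate 5 or 7 (-0.65, adjusted p 0.052 and 0.0514), and over the other alternatives the adjusted p was 0.00262 to 0.119, not passing with the identifier number as a block or in edgeR on the groups compared alone. SLE-BDL against ENT-BDL was -0.31 (SE 0.14, adjusted p = 0.128, 10 of 11 libraries), and it passed without SLE-BDL replicate 7 (-0.47, adjusted p = 0.00721) and with the identifier number as a block (-0.38, adjusted p = 0.039, with 0.269 the highest of the alternatives).

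APOA5 encodes a scarce activator of triglyceride breakdown by lipoprotein lipase, made almost only in liver. It read 20, 45.39 and 112.7 CPM in ENT-sham and 11.07, 27.26 and 36.32 CPM in ENT-BDL livers. It read 7.466, 11.24 and 38.61 CPM in SLE-sham and 7.574, 13.56 and 58.87 CPM in SLE-BDL livers. It read 4.186, 7.783 and 18.43 CPM in MLE-sham and 3.202, 4.547 and 10.34 CPM in MLE-BDL livers. All 9 MLE-sham libraries were below all 12 ENT-sham libraries and all 8 MLE-BDL libraries below all 10 ENT-BDL libraries, while SLE-sham replicates 6 and 10 and 7 of 11 SLE-BDL libraries reached into the range of ENT pigs with the same surgery.

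APOA5 had the largest fall of the 9 genes in the edgeR fit of all libraries. In sham pigs APOA5 fell by 2.68 on MLE against ENT (SE 0.36, adjusted p = 1.26e-07, 9 of 9 libraries, 6.4-fold) and by 1.94 on SLE against ENT (SE 0.33, adjusted p = 7.84e-06, 10 of 10 libraries, 3.83-fold). In BDL pigs it fell by 2.25 on MLE against ENT (SE 0.38, adjusted p = 2.1e-05, 8 of 8 libraries, 4.77-fold) and by 1.77 on MLE against SLE (SE 0.37, adjusted p = 0.00834, 8 of 8 libraries). The last of these was -1.77 with an adjusted p of 0.0812 when edgeR was run on the groups compared alone, the highest of its alternatives. Without the matching libraries APOA5 was -2.77 in MLE-sham and -2.02 in SLE-sham against ENT-sham, and -2.29 in MLE-BDL against ENT-BDL. SLE-BDL against ENT-BDL was -0.49 (SE 0.32, adjusted p = 0.303, 9 of 11 libraries), and -0.82 without SLE-BDL replicate 7 (adjusted p = 0.055).

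On ENT, BDL lowered APOA5, which fell by 1.07 (SE 0.32, adjusted p = 0.0144, 10 of 10 libraries, 2.1-fold), and by 1.11 without the matching libraries. The BDL difference was 0.38 (SE 0.33, adjusted p = 0.584) on SLE and -0.64 (SE 0.38, adjusted p = 0.273, 6 of 8 libraries) on MLE. With 1 library left out in edgeR it was 0.05 to 0.67 on SLE (adjusted p 0.257 to 0.961) and -0.81 to -0.43 on MLE (adjusted p 0.183 to 0.509). SLE minus ENT was 1.45 (SE 0.46, adjusted p = 0.0772), and it passed without SLE-sham replicate 6 (1.74, adjusted p = 0.0212), without ENT-sham replicate 2 (1.54, adjusted p = 0.0333), without both matching libraries, with the identifier number as a block (1.61) and in DESeq2 on all libraries (1.46); the adjusted p was at most 0.176 when another library was left out. MLE minus ENT was 0.42 (adjusted p = 0.868).

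APOA4 encodes a lipoprotein component that many mammals make mainly in the small intestine during fat absorption. Its level was 8.01, 12.32 and 23.32 CPM in ENT-sham and 6.135, 11.17 and 20.42 CPM in ENT-BDL livers. On SLE, sham livers had 6.539, 11.65 and 155.6 CPM, with 21.67 CPM the next highest, and BDL livers 8.59, 19.51 and 135.1 CPM. On MLE, sham livers had 5.077, 6.279 and 10.21 CPM, and BDL livers 7.769, 14.25 and 25.98 CPM. SLE pigs were the most uneven, since SLE-sham replicate 6 stood alone and 5 of 11 SLE-BDL libraries (replicates 1, 5, 6, 7 and 9, at 33.6 to 135.1 CPM) exceeded every ENT and MLE library while the other 6 had 19.51 CPM or less.

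Against ENT-BDL, APOA4 rose on SLE by 1.90 (SE 0.46, adjusted p = 0.0018, 9 of 11 libraries above the ENT-BDL median, 3.74-fold), by 1.87 without the matching libraries and by 1.56 at the lowest with another library left out. Among sham pigs the call rested on SLE-sham replicate 6. On MLE against SLE APOA4 fell by 1.96 (SE 0.49, adjusted p = 0.0305, 9 of 9 libraries), but without that library the difference was -0.83 (adjusted p = 0.428), and it was also lost without MLE-sham replicate 3, 4, 5 or 6 (-1.93 to -1.92, adjusted p 0.0536 to 0.0665). Over the other alternatives the adjusted p was 0.00271 to 0.129, and the call was lost with the replicate block (-1.47), the identifier block (-1.72) and edgeR on those groups alone (-1.96). SLE-sham against ENT-sham was 1.04 (SE 0.43, adjusted p = 0.0631, 5 of 10 libraries above the ENT-sham median). It was -0.09 (adjusted p = 0.885) without SLE-sham replicate 6, and it passed without ENT-sham replicate 12 or SLE-sham replicate 1, 3, 7, 8 or 9 (1.14 to 1.16, adjusted p 0.0391 to 0.0483).

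The BDL difference of APOA4 was -0.14 (SE 0.44, adjusted p = 0.874) on ENT, 0.72 (SE 0.44, adjusted p = 0.391, 8 of 11 libraries) on SLE and 1.13 (SE 0.50, adjusted p = 0.124, 8 of 8 libraries) on MLE. Without SLE-sham replicate 6 it passed on SLE at 1.85 (adjusted p = 0.00175), and SLE minus ENT went from 0.86 (adjusted p = 0.563) to 1.99 (adjusted p = 0.0166). On MLE it passed when only the MLE groups were fitted, at 1.14 in edgeR (adjusted p = 0.00037) and in DESeq2 (adjusted p = 4.61e-07), for which the cause was not tested; over the leave-one-out fits of all groups the adjusted p was 0.0989 to 0.217. MLE minus ENT was 1.27 (adjusted p = 0.587) and passed in DESeq2 on those groups alone (1.28, adjusted p = 0.0131, with 0.703 the highest of the alternatives). MLE-BDL against SLE-BDL was -1.55 (SE 0.48, adjusted p = 0.104, 7 of 8 libraries) and passed in DESeq2 on all libraries (-1.54, adjusted p = 0.0393, with 0.275 the highest of the alternatives). MLE-sham against ENT-sham was -0.92 (adjusted p = 0.161), or -0.92 (adjusted p = 0.00149) in edgeR on those groups alone and -1.47 (adjusted p = 0.0317) with the identifier number as a block.

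Enterocyte markers differed between the libraries with high APOA4. They summed to 22.7 CPM in SLE-sham replicate 6, rank 5 of 10 in its group, to 82.5 CPM in SLE-BDL replicate 7, rank 1 of 11, and to 62.5 CPM in SLE-BDL replicate 9. In SLE-BDL replicates 1, 5 and 6 they summed to 54.4, 25.7 and 38.1 CPM, ranks 3, 10 and 6 of 11. The most abundant of these markers over all 60 libraries was VIL1, at 34.3 CPM on average, and the defining gene SI had a count of 0 in all 6 of these libraries and FABP2 in all but SLE-BDL replicate 5 (CDX2 too was at 0 in SLE-BDL replicate 9). SI and FABP2 were at 0 in most of the 60 libraries and had too few counts to be tested. Their counts of 0 therefore do not set these 6 libraries apart. The overlapping LOC106504887 had a median of 0.866 CPM in ENT-sham and 1.07 CPM in ENT-BDL livers. It had 0.21 and 0.333 CPM in SLE-sham and SLE-BDL, and 0.202 and 0.128 CPM in MLE-sham and MLE-BDL livers. It was high for the group in SLE-sham replicate 6 (0.673 CPM) and highest of the SLE-BDL libraries in replicates 7 and 9 (0.937 and 0.728 CPM). In edgeR it fell on SLE against ENT by 1.69 in sham (adjusted p = 0.00407) and by 1.68 in BDL pigs (adjusted p = 0.0051). On MLE against ENT it fell by 1.99 in sham (adjusted p = 0.00223) and by 2.96 in BDL pigs (adjusted p = 7.97e-05). SLE-BDL replicate 7 was also the highest of its group for APOA5, APOC3 and APOE and for the hepatocyte marker sum (111000 CPM), whereas SLE-BDL replicate 9 was the lowest for APOA1, APOA2, APOE and APOM. The part of these markers in the APOA4 values was not tested.

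APOH encodes beta-2-glycoprotein I, a plasma protein that binds negatively charged phospholipid and circulates partly on lipoproteins. ENT-sham livers had 2570, 4084 and 6035 CPM, and ENT-BDL livers had 2507, 3042 and 4408 CPM. SLE-sham livers had 1572, 2312 and 2935 CPM, and SLE-BDL livers 1380, 2515 and 2905 CPM. MLE-sham livers had 2750, 3025 and 3728 CPM, and MLE-BDL livers 1528, 2098 and 2309 CPM. The MLE groups did not overlap, MLE-BDL was wholly below ENT-BDL, and 9 of 10 SLE-sham libraries were below every ENT-sham library.

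APOH was the gene that passed in the most comparisons. On SLE against ENT it fell by 0.91 in sham pigs (SE 0.12, adjusted p = 2.74e-08, 10 of 10 libraries, 1.87-fold) and by 0.45 in BDL pigs (SE 0.12, adjusted p = 0.00465, 11 of 11 libraries). On MLE against ENT it fell by 0.44 in sham pigs (SE 0.12, adjusted p = 0.00598, 9 of 9 libraries) and by 0.65 in BDL pigs (SE 0.13, adjusted p = 0.000255, 8 of 8 libraries). Without the matching libraries these falls were 0.96, 0.48, 0.50 and 0.67. MLE-sham against SLE-sham was 0.46 (SE 0.13, adjusted p = 0.0529, 9 of 9 libraries), and it passed without SLE-sham replicate 7 (0.48, adjusted p = 0.0496) or 9 (0.51, adjusted p = 0.0254) and in 5 other alternatives: the replicate block (0.49, adjusted p = 0.0351), the matching ENT pair left out (adjusted p = 0.0318), edgeR on those groups alone (adjusted p = 0.0268) and DESeq2 on all libraries (adjusted p = 0.0245) or on those groups (adjusted p = 0.000967). The highest adjusted p was 0.131 with a library left out and 0.159 with the identifier number as a block.

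After BDL, APOH fell by 0.64 on MLE (SE 0.13, adjusted p = 0.000507, 8 of 8 libraries) and by 0.43 on ENT (SE 0.12, adjusted p = 0.00725, 9 of 10 libraries; by 0.46 without the matching libraries). On SLE, where sham livers already had the lowest sham median, the difference was 0.02 (SE 0.12, adjusted p = 0.958). SLE minus ENT was 0.45 (adjusted p = 0.155). MLE minus SLE was -0.66 (SE 0.18, adjusted p = 0.0886), which passed without SLE-BDL replicate 6 (-0.71, adjusted p = 0.0292, against 0.167 at the highest) and in DESeq2 on all libraries (-0.66, adjusted p = 0.0421) or on those groups alone (-0.66, adjusted p = 0.0137).

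**Figure D3:**
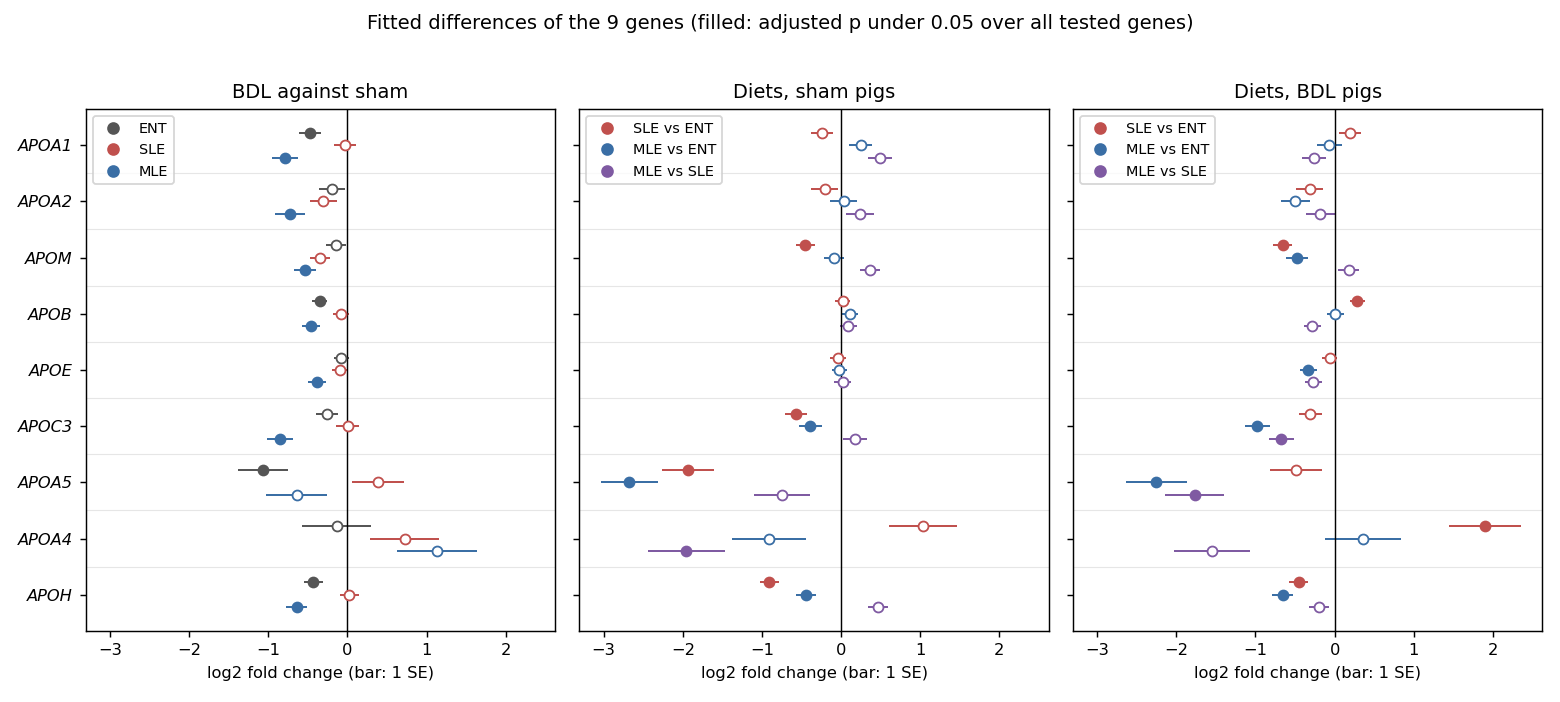
Log2 fold change of each of the 9 genes with a bar of 1 SE on either side, for BDL against sham on each diet, for the diets in sham pigs and for the diets in BDL pigs. Filled points passed at an adjusted p under 0.05; APOA5 lies farthest left, at -2.68 in MLE-sham against ENT-sham, and no point of BDL against sham on SLE is filled.

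The question of how BDL changed the 9 genes was asked on each diet. On ENT 4 of 9 passed (APOA1, APOB, APOH and APOA5), each lower, where 8.66% of all tested genes were lower and 8.78% higher. On MLE 7 of 9 passed, each lower, where 7.2% of tested genes were lower and 7.23% higher, and APOA5 and APOA4 did not. On SLE 0 of 9 passed in edgeR and 0 in DESeq2, with 1 gene (APOM) at an unadjusted p under 0.05, where 1.68% of tested genes were lower and 2.86% higher; without SLE-BDL replicate 3 APOM passed (-0.41) and without SLE-sham replicate 6 APOA4 did (1.85), and with the identifier number as a block APOA2 did (-0.47). The median log2 fold change of the 9 genes was -0.26 on ENT, -0.03 on SLE and -0.64 on MLE, against 0.00, 0.00 and -0.01 for all tested genes. The MLE fits without 1 library gave 7 of 9 every time, and the ENT fits 4 of 9.

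Whether diet changed the response to BDL was tested as the difference of differences. In edgeR 0 of 9 genes passed for SLE minus ENT, MLE minus ENT or MLE minus SLE, where 2.28%, 0.0802% and 0.278% of tested genes did. At an unadjusted p under 0.05 there were 3, 4 and 5 genes, and DESeq2 on all libraries passed 1, 0 and 3 of 9. Among the edgeR fits that each left out 1 library, the largest count for SLE minus ENT was 2, without SLE-sham replicate 6 (APOA4 at 1.99 and APOA5 at 1.74). In such fits the largest count for MLE minus SLE was also 2, without SLE-BDL replicate 6 (APOH at -0.71 and APOC3 at -0.91). So 7 genes passed on MLE and 0 on SLE, yet a difference between these diets was not established for any of them in the edgeR fit.

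Whether parenteral diets differed from ENT was asked in sham and in BDL pigs, and the comparisons with ENT share the ENT libraries of each surgery. In sham pigs 4 of 9 genes passed on SLE (APOH, APOC3, APOM and APOA5), each lower, where 13.8% of tested genes were lower and 13.7% higher. On MLE 3 of 9 passed (APOH, APOC3 and APOA5), each lower, where 10.4% of tested genes were lower and 10.7% higher; 2 remained in the fits that lost APOC3 (-0.34 without ENT-sham replicate 5). With the identifier number as a block 5 of 9 passed there, with APOA1 higher (0.47) and APOA4 lower (-1.47) in addition. In BDL pigs 2 fell on SLE (APOH and APOM) and 2 rose (APOB and APOA4), where 9.45% of tested genes were lower and 9.88% higher. APOB did not pass there with the replicate block (0.25) or the identifier number as a block (0.21). Leaving out 1 library gave 3 to 5 genes. On MLE 5 of 9 passed (APOE, APOH, APOC3, APOM and APOA5), each lower, where 8.86% of tested genes were lower and 7.59% higher. The median log2 fold change of the 9 genes was -0.24 and -0.08 in sham pigs on SLE and MLE and -0.31 and -0.48 in BDL pigs, against -0.01 over all tested genes in each.

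The parenteral emulsions were also compared with each other. In sham pigs 1 of 9 genes passed, APOA4, lower on MLE, where 0.58% of tested genes were lower and 0.364% higher; without SLE-sham replicate 6 it did not pass (-0.83). In BDL pigs 2 of 9 passed, APOC3 and APOA5, both lower on MLE, where 0.759% of tested genes were lower and 0.191% higher, and APOC3 did not pass without SLE-BDL replicate 7 (-0.51). Of APOC3 and APOA5 neither passed in edgeR on those groups alone (-0.67 and -1.77), and APOC3 did not with the identifier number as a block (-0.76). A fold change over 2 together with the adjusted p was reached by APOA5 in BDL against sham on ENT and in 4 diet comparisons, and by APOA4 in SLE-BDL against ENT-BDL and in MLE-sham against SLE-sham.

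Markers of liver cell types passed in some of the same comparisons. Their counts, here and in the next paragraph, are to be read beside the shares of all tested genes given above. After BDL these were 8.66% lower and 8.78% higher on ENT, and 7.2% and 7.23% on MLE. For SLE-sham against ENT-sham they were 13.8% and 13.7%. The 7 hepatocyte markers summed to a median of 132400 CPM in ENT-sham and 86650 CPM in ENT-BDL, 110300 and 100300 CPM in SLE-sham and SLE-BDL, and 129600 and 79710 CPM in MLE-sham and MLE-BDL livers. After BDL 3 of 7 fell on ENT (ALB, FGB and ASGR1) and 5 of 7 on MLE (ALB, AHSG, FGB, TTR and ASGR1), and ALB fell by 0.83 (SE 0.15, adjusted p = 7.58e-05) on ENT and by 0.79 (SE 0.17, adjusted p = 0.000886) on MLE. In sham pigs 4 of 7 fell on SLE against ENT, and on MLE against ENT 2 of 7 fell (TTR and ASGR1) and AHSG rose. In BDL pigs 1 of 7 fell on SLE and on MLE against ENT, and 1 of 7 on MLE against SLE. FGB differed between diets in its BDL response, by 0.88 for SLE minus ENT (adjusted p = 0.0159) and by -1.14 for MLE minus SLE (adjusted p = 0.0109). After BDL on MLE the falls of APOA1, APOB, APOC3, APOE, APOH, APOA2 and APOM stood beside falls of most of these markers. After BDL on ENT those of APOA1, APOB, APOH and APOA5 stood beside falls of 3 of 7. In sham pigs APOH, APOC3, APOM and APOA5 fell on SLE against ENT beside 4 of 7, and APOH, APOC3 and APOA5 fell on MLE beside 2 of 7. In BDL pigs APOH and APOM fell on SLE against ENT, and APOE, APOH, APOC3, APOM and APOA5 on MLE, each beside a fall of 1 of 7. On MLE against SLE APOC3 and APOA5 fell beside 1 of 7. The part of hepatocyte mRNA as a whole in these falls was not tested. Single marker genes are named here after their values were seen.

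The 8 cholangiocyte markers summed to a median of 127.6 CPM in ENT-sham and 296.9 CPM in ENT-BDL, 311.3 and 363.1 CPM in SLE-sham and SLE-BDL, and 203.5 and 347.1 CPM in MLE-sham and MLE-BDL livers, with CLDN4 the most abundant at 108 CPM on average and none of the 8 at 0 in a group. After BDL 5 of 8 rose on ENT, 1 (KRT7) on SLE and 6 on MLE. In sham pigs 3 of 8 rose on SLE and 2 on MLE against ENT and 1 fell on MLE against SLE, in BDL pigs 1 rose on SLE and 2 on MLE against ENT, and SPP1 differed in its BDL response by -2.12 for SLE minus ENT (adjusted p = 0.00136). Of 8 stellate cell and fibroblast markers (COL3A1 most abundant, 1340 CPM), 1 rose and 1 fell after BDL on ENT, 1 rose on SLE, and 3 rose and 1 fell on MLE, and 1 fell on MLE against SLE in BDL pigs, with median sums of 1242 and 2393, 1763 and 2009, and 1548 and 3454 CPM in sham and BDL pigs of the 3 diets. Of 8 macrophage markers (CD14 most abundant, 554 CPM) 1 rose and 3 fell after BDL on ENT and on MLE, and 1 rose on SLE, while 2 rose and 1 fell on SLE against ENT in sham pigs; the median sums were 2202 and 1612, 1803 and 1564, and 1817 and 1324 CPM. Of 6 endothelial markers (STAB2, 277 CPM) 1 fell after BDL on ENT and 1 on SLE against ENT in sham pigs, with median sums of 639.4 to 760 CPM. Of 5 erythroid markers (HBB, 729 CPM) 2 fell after BDL on MLE, 2 on SLE and 2 on MLE against ENT in sham pigs, and 1 on SLE and 4 on MLE against ENT in BDL pigs, with median sums from 213.2 CPM in MLE-BDL to 1151 CPM in ENT-sham livers. Of 6 enterocyte markers 3 had enough counts to be tested, and 0 passed in edgeR. The 1 macrophage and 1 endothelial marker that fell on SLE against ENT in sham pigs are near the share of all tested genes (13.8% lower). The part of these cells in the apolipoprotein values was not tested.

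The counts of list genes below are to be read beside the shares of all tested genes given above for each comparison. Among 13 tested apolipoprotein genes outside the 9, APOC2 and APOF differed between MLE and ENT. On MLE against SLE 0 of the 13 passed in sham pigs in edgeR, and in BDL pigs only SAA3 did. Neither gene was thus shown to differ between the parenteral emulsions. APOC2, the cofactor that lipoprotein lipase needs, was 1310 ± 169 CPM (SD, n = 12) in ENT-sham and 1840 ± 242 CPM (n = 9) in MLE-sham livers, and rose by 0.50 (SE 0.10, adjusted p = 9.69e-05 in edgeR). APOF, which inhibits lipid transfer between lipoproteins, was 265 ± 57.6 CPM (n = 10) in ENT-BDL and 79.5 ± 16.5 CPM (n = 8) in MLE-BDL livers, and fell by 1.74 (SE 0.18, adjusted p = 2.66e-10). In sham pigs 1 of the 13 rose and 4 fell on SLE against ENT, and 1 rose and 1 fell on MLE. In BDL pigs 2 rose and 2 fell on SLE against ENT, 2 rose and 3 fell on MLE against ENT (APOO, a protein of the mitochondrial inner membrane, rose by 0.50), and SAA3 fell on MLE against SLE. After BDL 1 rose and 1 fell on ENT, 1 rose and 1 fell on SLE, and 3 fell on MLE.

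The acute-phase apolipoproteins of that list varied widely between pigs. SAA3 was 116 ± 133 CPM in ENT-BDL and 17.3 ± 4.1 CPM in MLE-BDL livers, and fell by 2.75 (SE 0.69, adjusted p = 0.00325). SAA3 also rose after BDL on ENT by 1.54 (SE 0.57, adjusted p = 0.0496), from a median of 19.7 CPM to 72.5 CPM. SAA2 fell by 3.26 on SLE against ENT in sham pigs (SE 0.87, adjusted p = 0.00347), where the ENT-sham libraries ran from 4.04 to 841 CPM.

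Among 16 tested genes of lipoprotein assembly and secretion, PLIN2, which coats lipid droplets, was 33.1 ± 6.88 CPM in ENT-sham and 90.8 ± 17.7 CPM in SLE-sham livers, and rose by 1.46 (SE 0.17, adjusted p = 1.41e-09). SAR1B, the GTPase of the vesicles in which large lipoproteins leave the endoplasmic reticulum, was 125 ± 21.1 CPM and 68.4 ± 6.97 CPM in the same groups, and fell by 0.87 (SE 0.10, adjusted p = 5.62e-10). SEC24B, a coat protein of these vesicles, fell by 0.41 (adjusted p = 0.000228) and FITM2, which acts in droplet formation, rose by 0.76 (adjusted p = 7.36e-06) there. Of the 16 genes 4 rose and 3 fell on SLE (13.7% and 13.8% of all tested genes) and 3 rose and 3 fell on MLE (10.7% and 10.4%) against ENT in sham pigs, and 5 rose and 1 fell on SLE and 4 rose and 1 fell on MLE in BDL pigs. After BDL 1 rose and 4 fell on ENT, 1 rose and 1 fell on SLE and 1 rose on MLE. SORT1, a sorting receptor that binds apolipoprotein B, was the gene that rose on ENT, by 0.84 (SE 0.15, adjusted p = 3.86e-05), and MIA3, which loads bulky cargo for export, fell on MLE against SLE in BDL pigs by 0.42 (adjusted p = 0.0259).

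Of 12 tested genes of lipolysis and plasma remodelling, 2 rose and 2 fell after BDL on ENT and 1 rose and 3 fell on MLE. In sham pigs 3 rose and 2 fell on SLE against ENT, 1 rose and 1 fell on MLE against ENT, and 2 fell on MLE against SLE. In BDL pigs 3 rose and 1 fell on SLE against ENT, 1 fell on MLE against ENT and 2 fell on MLE against SLE. PCSK6, a proprotein convertase, rose after BDL on ENT by 0.39 (SE 0.10, adjusted p = 0.00246; SLE minus ENT -0.50, adjusted p = 0.0318), and ANGPTL8, a partner in lipase inhibition, fell by 1.23 (SE 0.37, adjusted p = 0.0106) on MLE against ENT in sham pigs. ANGPTL4, an inhibitor of lipoprotein lipase, and LIPG, the endothelial lipase, rose on SLE against ENT in BDL pigs by 0.82 (adjusted p = 0.0461) and 1.62 (adjusted p = 0.0114) and fell on MLE against SLE by 1.38 (adjusted p = 0.0222) and 2.05 (adjusted p = 0.0382). Their SLE-BDL medians were 47.1 and 7.51 CPM and their highest libraries 384 and 215 CPM. These genes were not refitted without single libraries, so the part of the highest libraries in the differences was not tested. LPL, the lipase on which APOC3 and APOA5 act, named here after its values were seen, had a median of 0.135 CPM in sham and 1.64 CPM in BDL pigs on ENT, 2.41 and 4.38 CPM on SLE, and 0.251 and 2.5 CPM on MLE. The BDL response of LPL differed by -2.97 for SLE minus ENT (adjusted p = 0.0174) and by 3.71 for MLE minus SLE (adjusted p = 0.0189). Its ENT-sham and MLE-sham medians were near the floor, where a few reads can move a log2 fold change. LPL too was not refitted without single libraries, so their part in these differences was not tested.

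Of 14 tested receptor and uptake genes, 2 rose and 3 fell after BDL on ENT and 3 rose and 3 fell on MLE. SCARB1, the HDL receptor, was 191 ± 26.7 CPM in ENT-sham and 120 ± 18.2 CPM in ENT-BDL livers, and fell by 0.68 (SE 0.08, adjusted p = 5.04e-09; SLE minus ENT 0.47, adjusted p = 0.00903). STAB1, a scavenger receptor, fell after BDL on MLE by 0.60 (adjusted p = 0.0139). In sham pigs 4 rose and 2 fell on SLE against ENT, and CD36 fell on MLE against SLE. The count of this list on MLE against ENT in sham pigs is not reported here. CD36, which takes up fatty acids, was 1.9 ± 0.906 CPM in ENT-sham and 6.19 ± 2.05 CPM in SLE-sham livers, where it rose by 1.70 (SE 0.27, adjusted p = 1.38e-06), and it fell by 1.62 on MLE against SLE (adjusted p = 0.00145). In BDL pigs 2 rose on SLE against ENT and 1 on MLE, LRP1, a remnant receptor, by 0.40 (adjusted p = 0.0301).

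Of 10 genes of cholesterol efflux and esterification, 5 rose on SLE and 4 rose and 1 fell on MLE against ENT in sham pigs, and 3 rose on SLE and 2 rose and 1 fell on MLE in BDL pigs. ABCG5 and ABCG8, which together export sterol into bile, rose on SLE in sham pigs by 0.97 (SE 0.13, adjusted p = 2.28e-08) and by 0.84 (SE 0.12, adjusted p = 3.17e-07), and SOAT1, which esterifies cholesterol, by 0.87 (SE 0.09, adjusted p = 4.91e-11). ABCG1, which exports cholesterol to HDL, fell on MLE against ENT in sham pigs by 0.44 (adjusted p = 0.0335), and ABCG5 fell on MLE against ENT in BDL pigs by 0.47 (adjusted p = 0.0146). After BDL 3 rose and 1 fell on ENT, and 1 rose and 1 fell on MLE, where SOAT2, the esterifying enzyme of hepatocytes, fell by 0.50 (adjusted p = 0.00168). The BDL response of ABCG5 differed by -1.27 for SLE minus ENT (adjusted p = 2.25e-05) and by -0.94 for MLE minus ENT (adjusted p = 0.0373).

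The 28 transcriptional regulators include nuclear receptors and liver-enriched factors known to bind apolipoprotein promoters. After BDL 16 of 28 fell and 1 rose on ENT (8.66% and 8.78% of all tested genes), 2 fell on SLE (1.68%) and 9 fell on MLE (7.2%), and no difference between diets in the BDL response was established for any of them in edgeR. SREBF1, which drives lipid synthesis genes, was 410 ± 97.8 CPM in ENT-sham and 215 ± 86.5 CPM in ENT-BDL livers, and fell by 0.93 (SE 0.17, adjusted p = 6.49e-05). MLXIPL, which answers to glucose, was 207 ± 37.5 CPM in MLE-sham and 108 ± 20.3 CPM in MLE-BDL livers, and fell by 0.93 (SE 0.16, adjusted p = 5.46e-05). RORA, an orphan nuclear receptor, fell by 0.98 (SE 0.22, adjusted p = 0.00123) in the same comparison. In sham pigs 4 rose and 9 fell on SLE (13.7% and 13.8% of all tested genes) and 4 rose and 4 fell on MLE (10.7% and 10.4%) against ENT, and THRB, a thyroid hormone receptor, rose on SLE by 0.57 (adjusted p = 1.54e-05). In BDL pigs 6 rose on SLE and 4 rose and 2 fell on MLE against ENT, among them NR0B2, the bile acid-induced repressor, by 0.87 (SE 0.16, adjusted p = 5.29e-05) on SLE and CEBPA, a liver-enriched factor, by 0.59 (SE 0.17, adjusted p = 0.00971) on MLE. The median log2 fold change of the 28 after BDL was -0.28 on ENT, -0.11 on SLE and -0.22 on MLE.

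For APOA4 and APOA5, which passed with a fold change over 2, the genes with the most similar pattern were sought among 10807 genes by the root mean square difference of centred log2 CPM over the 60 libraries. The nearest to APOA5 was SLC27A5, a bile acid and fatty acid ligase gene, at 0.64, followed by FOLR2, a folate receptor, at 0.69 and CYP1A2, a cytochrome P450 of drug metabolism, at 0.73, where APOA5 itself deviated from its mean by 1.27. SLC27A5 averaged 364 CPM in sham and 256 CPM in BDL pigs on ENT, 101 and 104 CPM on SLE, and 120 and 61.2 CPM on MLE, as its choice by likeness to APOA5 implies. The nearest to APOA4 were CHCHD10, a mitochondrial protein gene, at 0.77, CYP2D25, a cytochrome P450, at 0.80 and ALDOA, a glycolytic enzyme, at 0.82, not far below the 1.04 by which APOA4 itself deviated from its mean.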

How the data were processed

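The deposited values were raw read counts per gene, which the authors made from poly-A libraries by alignment to Sscrofa11.1 with HISAT2 2.0.5, gene prediction with StringTie 1.3.3 and counting with featureCounts 1.5.0-p3. The gene lengths deposited beside the counts, in bases, which the authors took from the gene models, served here for CPM per kb. Features without a name, 24 of 30359, took 0.0084% to 0.0407% of counts and were left out. Counts were scaled by TMM, filtered by filterByExpr on the 6 groups and tested with robust quasi-likelihood fits in edgeR 4.0.16 under R 4.3.3, with DESeq2 1.42.0 as an alternative, and tables and figures were made in Python 3.11.15 with pandas 2.3.3, numpy 2.4.6 and matplotlib 3.10.9.

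All tests were two-sided. The members and lists were chosen with earlier results of these data known. From each of 6 gene lists (other apolipoproteins, assembly and secretion, lipolysis and remodelling, receptors and uptake, cholesterol efflux and esterification, transcriptional regulators) the text names the 3 largest rises and falls that passed in any comparison of groups at a mean log2 CPM of at least 2, apart from a gene of the receptor list that is not reported here, nor is the count of that list in MLE-sham against ENT-sham. For each member that passed with a fold change over 2 it names the 3 genes most alike. There were 7 lists of cell markers.

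Replicate numbers did not pair libraries: over 82 pairs of libraries with the same number r was -0.232 to 0.381 (median -0.011), 20 pairs were over 0.1, and 16 of 60 libraries correlated best with their own number, so the samples were treated as unpaired. The meaning of the number inside the pig identifiers is not stated, and MLE libraries carry 4 of its 8 values while most ENT and SLE libraries carry the others, so comparisons of MLE with ENT or SLE also compare these sets in part; libraries of different groups with the same number had a mean r of 0.133 over 177 pairs against -0.018 over 1318 others, and it was used as a block in an alternative.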

Additional observations from a re-analysis of the deposited data

Results flagged for a closer look

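Of 36 sets of values (a gene in a group of 10 libraries or fewer), 3 held a library farther from the rest than Dixon's 95% critical value allows on the log2 CPM scale, and chance alone gives about 1 in 20. APOA4 was 155.6 CPM in SLE-sham replicate 6, a gap to the next library of 0.624 of the range of the group in log2 CPM against a critical value of 0.466. APOA5 was 11.07 CPM in ENT-BDL replicate 2, the lowest of its group, with a gap of 0.468 of the log2 range. APOB was 7894 CPM in SLE-sham replicate 2, the highest of its group, with a gap of 0.501 of the log2 range. Without SLE-sham replicate 6 APOA4 in MLE-sham against SLE-sham was -0.83 and no longer passed, while the APOA5 and APOB calls did not depend on the other libraries named here. The cause of these values was not tested.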

How the results depend on the processing

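The number of the 9 genes that passed was within 1.5 times the reported count in every comparison with RLE size factors, with the 10 most abundant genes left out of scaling, without a filter on low counts, and with at least 10 counts required in every library. RLE and the other scaling moved the median of all genes by at most 0.016 on the log2 scale. Of 1296 single values compared with their reported value, which hold of the fits with a library left out the lowest and the highest alone, 1237 kept their side of the threshold, 25 of them with a change of sign and no call either way, 18 lost the call and 41 gained one; none with a call changed sign.

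Requiring a fold change over 2 left 1 gene in BDL against sham on ENT, 0 on MLE in edgeR (8 at an unadjusted p under 0.05; DESeq2 passed 7 without that requirement), and 1 each in SLE-sham and MLE-sham against ENT-sham, in SLE-BDL and MLE-BDL against ENT-BDL and in MLE-BDL against SLE-BDL, as that requirement can only remove genes. With the identifier number as a block 1 gene passed in BDL against sham on SLE, 5 in MLE-sham against ENT-sham, 1 in MLE-BDL against SLE-BDL, 1 in SLE minus ENT and 1 in MLE minus SLE. With both matching ENT libraries left out 2 passed in MLE-sham against SLE-sham, 1 in SLE minus ENT and 1 in MLE minus SLE. DESeq2 on all libraries passed 2 in MLE-sham against SLE-sham, 1 in SLE minus ENT and 3 in MLE minus SLE, and on the groups compared alone 3 in MLE-sham against SLE-sham, 1 in MLE minus ENT and 2 in MLE minus SLE. In edgeR on the groups compared alone 0 passed in MLE-BDL against SLE-BDL, where DESeq2 on the same libraries passed 2 and 5 had an unadjusted p under 0.05 in the fit of all groups. The cause was not tested.

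Leaving out 1 library at a time gave 4 to 4 genes for BDL on ENT, 0 to 1 on SLE and 7 to 7 on MLE. It gave 4 to 5 for SLE-sham and 2 to 3 for MLE-sham against ENT-sham, 0 to 2 for MLE-sham against SLE-sham, 3 to 5 for SLE-BDL and 4 to 6 for MLE-BDL against ENT-BDL, and 1 to 2 for MLE-BDL against SLE-BDL. The differences of differences had 0 to 2 (SLE minus ENT), 0 to 0 (MLE minus ENT) and 0 to 2 (MLE minus SLE). The libraries are named beside each gene in the report. For example, without SLE-sham replicate 6, APOA4 in SLE-sham against ENT-sham went from 1.04 to -0.09. Without SLE-BDL replicate 7, APOC3 in SLE-BDL against ENT-BDL went from -0.31 to -0.47.

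With a replicate block, although the libraries are not paired, 4, 0 and 7 genes passed for BDL on ENT, SLE and MLE, 4 and 2 in SLE-sham and MLE-sham against ENT-sham, 1 in MLE-sham against SLE-sham, 3 and 6 in SLE-BDL and MLE-BDL against ENT-BDL, 2 in MLE-BDL against SLE-BDL and 0 in each difference of differences (in edgeR; without the block 3, 4 and 5 had an unadjusted p under 0.05 and DESeq2 on all libraries passed 1, 0 and 3). Of the 9 genes, APOA4 and APOA5 had the lowest median counts, 192.5 and 270.5, so depth bears on them more than on the others. Even so, counting error is small beside their spread between pigs.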
